A study of Mus musculus with 32 samples.

Results

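The 6 immediate early genes of the NR4A and EGR families, Nr4a1, Nr4a2, Nr4a3, Egr1, Egr2 and Egr3, were described in mouse regulatory T cells (Tregs, CD4+ T cells that depend on Foxp3 and hold other immune cells in check). They were taken by gene name, and all 6 of 6 were listed in every library and passed the filter on low counts, out of 14313 of 54087 genes that passed it. Bulk RNA was sequenced from 32 libraries in 11 groups. The cells were GFP+ Tregs of C57BL/6 mice of 2.5 months with a Foxp3-IRES-GFP knock-in, which every group carries. Resting Tregs received no agonist and have no culture time. All other Tregs were cultured with mouse IL-2 at 10 ng/ml on plates coated with antibodies to CD3, part of the T cell receptor (TCR), and to CD28, its costimulatory partner, for 18 or 36 h. At each time 1 group had no agonist (the control) and 4 groups had an agonist of a TNF receptor family member: TNC-sc(mu)TNF80, also named STAR2, for TNFR2 (12 ng/ml), the antibody 3H3 at 10 µg/ml for 4-1BB, TL1A at 12 ng/ml for DR3, or OX40L at 100 ng/ml for OX40. Each group had 3 libraries except OX40 at 18 h, which had 2. No culture without antibodies to CD3 and CD28 was among the groups, so resting and control differ in culture, IL-2 and stimulation together. The labels do not say that replicates came from separate animals or cultures, so p-values measure only the spread between these libraries, which may be technical.

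Immediate early genes are switched on by signals that reach transcription factors already present in the cell, so that no new protein has to be made first. In T cells, signals from the TCR through calcium, calcineurin and NFAT, and through the kinase ERK, act on such genes, and NR4A and EGR mRNAs are widely used as a readout of recent TCR signalling. The NR4A proteins (Nur77, Nurr1 and NOR1) are orphan nuclear receptors that support Foxp3 expression and Treg identity and that take part in tolerance and exhaustion of other T cells. The EGR proteins are zinc finger factors: EGR1 is a general early response factor downstream of ERK, and EGR2 and EGR3 restrain T cell activation and have been tied to anergy.

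By GENCODE M21 on mm10 (GRCm38), Nr4a1 (ENSMUSG00000023034) lies at chr15:101254269-101274795 on the plus strand, Nr4a2 (ENSMUSG00000026826) at chr2:57106830-57124003 on the minus strand and Nr4a3 (ENSMUSG00000028341) at chr4:48045153-48086447 on the plus strand. Egr2 (ENSMUSG00000037868) lies at chr10:67535475-67542188 and Egr3 (ENSMUSG00000033730) at chr14:70077203-70082614, both on the plus strand. All are protein-coding, and none overlaps another annotated gene. Promoter sequence is shown for the 3 NR4A genes and Egr2, and none is printed for Egr1 and Egr3. It is shown because CREB, SRF and EGR factors are known regulators of early genes. The stretches come from RefSeq's GRCm38.p6 annotation, read along each gene's own strand: 250 bases up to the start site of Nr4a1 (chr15:101266596-101266845, plus), Nr4a2 (chr2:57124004-57124253, minus) and Egr2 (chr10:67537619-67537868, plus, 1 of 5 windows listed), and for Nr4a3 the 98 bases before the first annotated exon base (chr4:48045055-48045152, plus). Capitals mark the CRE half-site TGACG, which reads CGTCA where it lies on the other strand, the EGR site GCGNGGGCG on either strand and, in Egr2, a CArG box, the site of SRF; no marked match overlaps another.
Nr4a1: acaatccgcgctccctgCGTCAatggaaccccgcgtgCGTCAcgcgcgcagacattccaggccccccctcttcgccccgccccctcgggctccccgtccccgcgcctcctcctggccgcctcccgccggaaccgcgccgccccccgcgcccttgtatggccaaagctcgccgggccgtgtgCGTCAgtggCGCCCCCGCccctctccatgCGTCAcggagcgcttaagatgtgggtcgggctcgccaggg
Nr4a2: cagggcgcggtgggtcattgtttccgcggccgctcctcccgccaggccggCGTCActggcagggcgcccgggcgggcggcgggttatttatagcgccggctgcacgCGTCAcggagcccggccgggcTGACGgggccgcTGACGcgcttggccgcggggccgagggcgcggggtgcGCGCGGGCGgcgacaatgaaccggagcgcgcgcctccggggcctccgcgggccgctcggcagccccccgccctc
Nr4a3: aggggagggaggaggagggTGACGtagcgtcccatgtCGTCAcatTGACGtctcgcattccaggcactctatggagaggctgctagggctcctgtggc
Egr2: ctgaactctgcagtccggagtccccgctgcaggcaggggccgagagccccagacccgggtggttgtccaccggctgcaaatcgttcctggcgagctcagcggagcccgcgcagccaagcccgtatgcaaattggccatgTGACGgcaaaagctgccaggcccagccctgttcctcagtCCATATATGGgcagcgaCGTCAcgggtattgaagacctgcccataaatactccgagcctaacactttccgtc

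The window searched was the 250 bases before the start. It held 4 CRE half-sites in each of Nr4a1, Nr4a2 and Nr4a3, of which 3 lie in the printed Nr4a3 stretch. The remaining Nr4a3 half-site, at −147 to −143 from the start, lies past the first annotated exon base of the gene. Over all 32536 RefSeq promoter windows of that length, 17.9% held at least 1 and 0.138% held at least 4. The Egr2 window held 2, and 3.92% of all windows held at least 2. An EGR site was found in Nr4a1 (bases −60 to −52 from the start) and Nr4a2 (−74 to −66), against 4.74% of all windows. The CArG box of Egr2 lay at −72 to −63 (1.48% of windows), and Nr4a2 held a MEF2 site at −167 to −158 (2.89%). The full CRE TGACGTCA, the NR4A site AAAGGTCA and the AP-1 site TGANTCA were not found in these 4 windows on either strand (1.56%, 1.35% and 6.73% of all windows). Nor were the NFAT letters GGAAAA (20.4%) or an NF-kB site (3.92%). The shorter NFAT core GGAAA was not searched for. It lies on the other strand, as TTTCC, in the printed Nr4a2 and Egr2 stretches. These matches are descriptions of letters and not evidence of binding.

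Total estimated counts per library ranged from 11880272 to 38083922. Levels are given as CPM, a library's count as a share of its total after TMM scaling, and, to compare genes with each other, as deposited TPM, which also accounts for transcript length. Treg markers were at 5004 to 5244 CPM in sum in resting and 5747 to 7809 CPM in cultured libraries, with all 12 detected. Il2ra was the highest of them in cultured libraries, with a mean of 2970 CPM. Against resting, 7 of the 12 were called higher and 4 lower in control at 18 h, and 4 higher and 8 lower at 36 h. Foxp3 itself had a mean of 520.2 CPM in resting, 581.7 CPM in control at 18 h and 368.7 CPM in control at 36 h. Markers of B cells (13 genes) summed to 772.6 to 796.8 CPM in resting, 303.3 to 329.0 CPM in control at 18 h and 333.4 to 436.2 CPM with an agonist at 18 h. Most of this was Ighm. Myeloid and dendritic markers (15 genes) summed to 16.5 to 19.73 CPM in resting, 12.54 to 13.6 CPM in control at 18 h and 25.96 to 49.05 CPM with an agonist at 18 h. Of these genes Zbtb46 alone was called higher with every agonist, and Siglech, S100a8 and S100a9 were at 0 in all 29 cultured libraries. Markers of other lymphocytes (12 genes of NK cells, gamma-delta and CD8 T cells) summed to 50.68 to 55.3 CPM in resting and 53.03 to 98.18 CPM in cultured libraries, with Ncr1 at 0 in all, and erythroid and platelet markers (12 genes) to at most 7.516 CPM. In bulk RNA, fewer cells of a type and less RNA per cell cannot be told apart. A transcript at a ribosomal RNA locus took up over 10000 CPM in 6 libraries, of which 2 were controls at 18 h.

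All 3 NR4A genes were higher in control than in resting Tregs, and their levels in the cultured libraries did not overlap those in resting Tregs. Nr4a1, which encodes Nur77, was at 140.7, 135.4 and 138.3 CPM in the resting libraries, 389.3, 389.6 and 378.9 in control at 18 h and 284.8, 275.6 and 298.8 in control at 36 h. Control at 18 h was highest, resting lowest, and the 3 groups did not overlap. The log2 fold change was 1.48 ± 0.04 at 18 h against resting (adjusted p 7.38e-35, 2.79-fold) and 1.05 ± 0.04 at 36 h, and from 18 to 36 h the level fell by 0.43 on the log2 scale (adjusted p 7.71e-14). Here ± is the standard error, and a gene was called where the adjusted p was below 0.05.

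Nr4a2, which encodes Nurr1, was the lowest of the family at 9.585, 10.05 and 12.9 CPM in resting, 36.6, 33.92 and 34.92 in control at 18 h and 34.04, 34.28 and 32.29 in control at 36 h. Both control groups lay above resting and overlapped each other. The log2 fold change against resting was 1.71 ± 0.08 at 18 h (3.27-fold, adjusted p 2.72e-25) and 1.64 ± 0.08 at 36 h, and that between the times was −0.07 ± 0.06 (95% interval −0.19 to 0.05, adjusted p 0.354). Nr4a3, which encodes NOR1, showed the highest fold change of the 6 genes, with 67.92, 71.83 and 73.12 CPM in resting, 607.9, 588.2 and 587.6 in control at 18 h and 773.4, 794.6 and 733.5 in control at 36 h. The 3 groups did not overlap, and unlike Nr4a1 the 36 h group was the highest. The log2 fold change was 3.07 ± 0.04 at 18 h (8.38-fold, adjusted p 9e-46), 3.43 ± 0.04 at 36 h (10.8-fold) and 0.37 ± 0.04 between the times (adjusted p 1.58e-11).

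The EGR genes did not share a direction. Egr1 (ENSMUSG00000038418, protein-coding, mm10 chr18:34859823-34864984 on the plus strand) was at 179.3, 175.6 and 198.8 CPM in resting, 144.4, 140.6 and 143.3 in control at 18 h and 123.9, 129.7 and 131.4 in control at 36 h, so that the resting libraries were the highest and no groups overlapped. It fell by 0.37 ± 0.04 on the log2 scale at 18 h against resting (adjusted p 1.63e-10), by 0.52 ± 0.04 at 36 h, and by 0.15 ± 0.04 between the times (adjusted p 0.00269). Without the 6 libraries over 10000 CPM of the ribosomal locus transcript, which leaves 1 control at 18 h, the last of these was −0.16 and no longer called (adjusted p 0.0726; 0.000136 to 0.0726 over the 9 other settings tried).

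Egr2 was at 55.3, 61.04 and 63.97 CPM in resting, 101.6, 101.1 and 104.7 in control at 18 h and 83.94, 83.08 and 84.08 in control at 36 h. Control at 18 h was the highest and the groups did not overlap. Egr2 rose by 0.77 ± 0.04 at 18 h (adjusted p 2.12e-21), was still 0.48 ± 0.04 above resting at 36 h, and fell by 0.29 ± 0.04 between the times (adjusted p 3.43e-08). Egr3 was at 61.51, 64.11 and 63.19 CPM in resting, 99.84, 97.04 and 102.6 in control at 18 h and 123.8, 135.2 and 135.4 in control at 36 h. It was lowest in resting and highest at 36 h, again without overlap, with log2 fold changes of 0.67 ± 0.05 at 18 h, 1.06 ± 0.05 at 36 h and 0.40 ± 0.04 between the times (adjusted p 5.93e-11).

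All 6 genes were thus called in both comparisons with resting, 5 of them higher, and 5 of 6 were called between 18 and 36 h. Most of the transcriptome differed between control and resting Tregs. Of all genes tested, 80.9% were called at 18 h (40.9% higher, 40.1% lower) and 84.5% at 36 h (42.4% and 42.1%). Between the times 52.2% were called (25.6% and 26.6%). The totals called against resting thus lie near the background. Replicates lay wholly above resting in 41.2% of all genes and wholly below it in 40.5% at 18 h, and in 42.4% and 42.1% at 36 h. Control at 36 h lay wholly above control at 18 h in 28.7% and wholly below it in 30.6%. Groups that do not overlap were thus common among all genes. The direction between the times separated the genes within each family, since Nr4a1, Egr1 and Egr2 fell and Nr4a3 and Egr3 rose. The B cell, myeloid and erythroid marker sums were also higher in resting than in control libraries. Of 21 tested genes of dissociation or sorting stress, 5 were called higher and 16 lower in control at 18 h than in resting. The part of these lists in the levels of Egr1 and the other members was not tested.

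**Figure D1:**
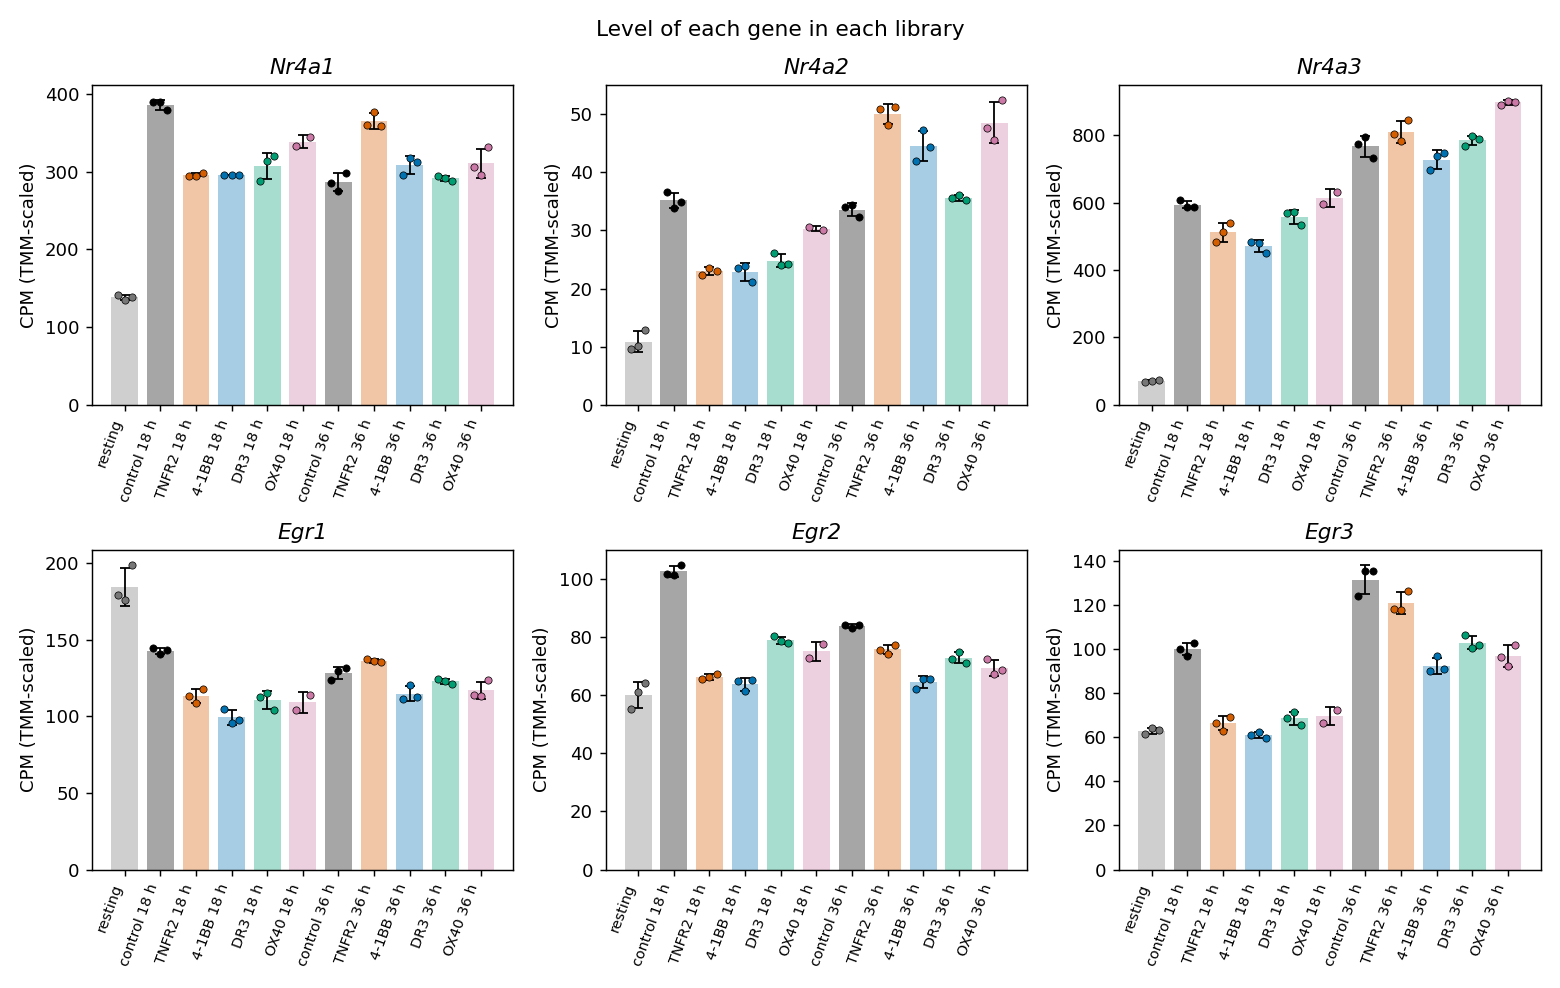
CPM (TMM-scaled, vertical axis from 0) of each of the 6 genes in each group (horizontal axis), where bars are group means, whiskers SD and points single libraries (3 per group, 2 for OX40 at 18 h). Nr4a1 and Egr2 peak in control at 18 h, Nr4a3 is higher at 36 h than at 18 h in every condition, and Egr1 is highest in resting Tregs at 175.6 to 198.8 CPM.

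On the TPM scale, which allows levels of different genes to be compared, Nr4a1 made up 77.7% ± 1.80 (SD, n = 3) of the NR4A sum in resting Tregs, Nr4a3 17.2% ± 0.963 and Nr4a2 5.15% ± 0.914. In control at 18 h the shares were 55.4%, 40.6% and 4.06%, and at 36 h Nr4a3 had passed Nr4a1, with 53.3% ± 1.88 against 42.9% ± 1.92. No library of control at 36 h had a higher share of Nr4a1 than of Nr4a3, and no resting or control library at 18 h had the reverse. The NR4A sum itself was 168.9 ± 6.11 TPM in resting, 535.4 ± 18.4 in control at 18 h and 502.1 ± 2.29 in control at 36 h.

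In TPM the EGR sum stayed within a narrow range while its makeup changed. It was 192.4 ± 10.4 TPM in resting, 200.5 ± 3.69 in control at 18 h and 197.2 ± 5.60 in control at 36 h, and the libraries of the 3 groups overlapped. Egr1 gave 58.4% ± 1.15 of it in resting, 39.7% ± 0.758 at 18 h and 36.5% ± 0.603 at 36 h. The share of Egr3 went from 19.4% ± 1.17 to 26.8% ± 0.879 and 36.4% ± 0.637, and that of Egr2 from 22.3% ± 1.13 to 33.5% ± 1.31 and 27.1% ± 0.598. At 36 h Egr1 and Egr3 were thus about level. TPM rests on the mean isoform length that RSEM estimated in each library, which for Nr4a1 was 2042 to 2195 bases in resting and at least 2334 bases in all cultured libraries. Deposited TPM is also not TMM-scaled. The TMM factors were 1.077 to 1.079 in resting, 0.9908 to 1.012 in control at 18 h and 0.9881 to 1.002 in control at 36 h. The narrow range of the EGR sum therefore holds for TPM and was not shown for CPM.

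**Figure D2:**
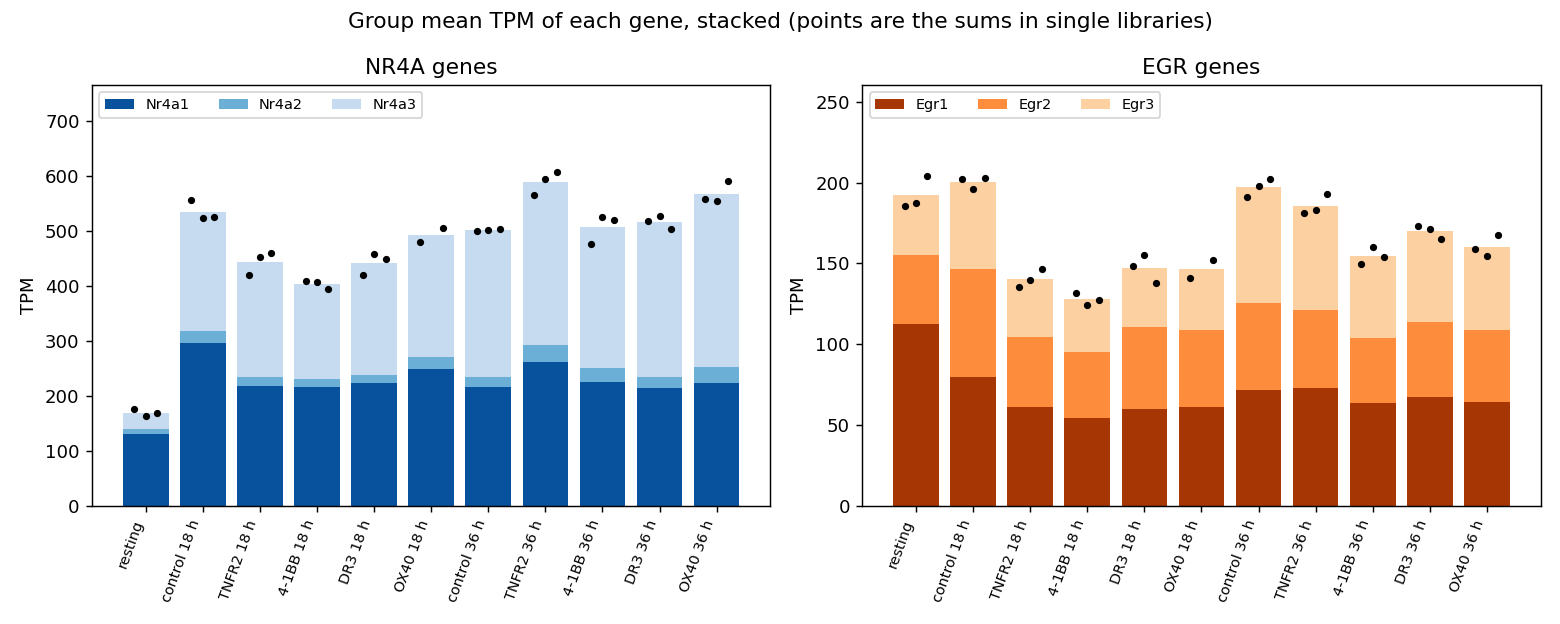
Stacked bars give the group mean TPM (vertical axis, from 0) of the NR4A genes (left) and EGR genes (right) in each group (horizontal axis), and points are the family sums in single libraries. The NR4A sum rises from 168.9 TPM in resting to 535.4 TPM in control at 18 h with a growing part from Nr4a3. The EGR sum in TPM differs little between resting and control but is lower with agonists at 18 h.

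At 18 h most of these genes were lower with every agonist than in the control. Among the NR4A genes, Nr4a1 was at 294.9, 294.5 and 298.2 CPM with the TNFR2 agonist, 296.1, 295.9 and 295.5 with the 4-1BB agonist, 288.1, 313.5 and 319.8 with the DR3 agonist and 333.2 and 344.4 with the OX40 agonist. All 11 values lay below the control libraries given above (378.9 to 389.6). The log2 fold changes were −0.38 ± 0.04, −0.38 ± 0.04, −0.33 ± 0.04 and −0.19 ± 0.04 in that order, all called (highest adjusted p 0.000684, with OX40).

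Nr4a2 was at 22.25, 23.57 and 23.05 CPM with the TNFR2 agonist, 23.51, 23.86 and 21.07 with 4-1BB, 26.03, 24.11 and 24.24 with DR3 and 30.55 and 29.99 with OX40. None overlapped the control (33.92 to 36.6), and the OX40 libraries lay nearest to it. The log2 fold changes were −0.62 ± 0.07 (adjusted p 6.86e-11), −0.62 ± 0.06 (3.78e-11), −0.50 ± 0.07 (4.06e-08) and −0.21 ± 0.07 (0.0211). The OX40 call of Nr4a2 was lost without control replicate 1 (−0.19, adjusted p 0.0956), OX40 replicate 1 (−0.23, 0.0673) or OX40 replicate 2 (−0.20, 0.139), where a lone OX40 library is assumed to vary like the other groups.

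Nr4a3 was the member that moved least at 18 h. It was at 482.1, 514.2 and 539.5 CPM with the TNFR2 agonist, 482.9, 479.2 and 451.6 with 4-1BB, 568.1, 572.4 and 534.5 with DR3 and 595.8 and 632.8 with OX40. The first 3 groups lay below the control libraries (587.6 to 607.9), and the OX40 group overlapped them. In TPM the TNFR2 (192.0 to 221.5) and DR3 libraries (194.7 to 210.5) overlapped control (209.1 to 230.9). The 4-1BB libraries (162.7 to 178.4) lay below it. The estimated mean isoform length of Nr4a3 was 4015 to 4192 bases with TNFR2 and 4617 to 4806 bases in control. The log2 fold change was −0.22 ± 0.04 (adjusted p 1.18e-05) with TNFR2 and −0.34 ± 0.04 (6.19e-10) with 4-1BB, and neither −0.09 ± 0.04 with DR3 (0.0931) nor 0.05 ± 0.04 with OX40 (0.499) was called.

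The EGR genes were lower with all 4 agonists at 18 h. Egr1 was at 113.1, 108.4 and 117.8 CPM with the TNFR2 agonist, 104.6, 95.53 and 97.61 with 4-1BB, 112.3, 115.3 and 104.0 with DR3 and 104.4 and 114.0 with OX40, all below the control (140.6 to 144.4). Against control these were log2 fold changes of −0.34 ± 0.04, −0.53 ± 0.04, −0.37 ± 0.05 and −0.39 ± 0.05, with adjusted p of at most 3.49e-08. Egr1 was thus lower in control at 18 h than in resting Tregs, and lower again with an agonist.

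Egr2 was at 65.37, 66.15 and 67.37 CPM with the TNFR2 agonist, 64.89, 61.2 and 65.13 with 4-1BB, 80.14, 78.66 and 77.79 with DR3 and 72.67 and 77.36 with OX40. None reached the control (101.1 to 104.7). The 4-1BB libraries overlapped the resting values of 55.3 to 63.97, and the TNFR2 libraries came near them. The log2 fold changes were −0.63 ± 0.04, −0.69 ± 0.04, −0.38 ± 0.04 and −0.45 ± 0.05 (adjusted p 3.69e-17, 1.05e-18, 8.06e-10 and 1.08e-10). Egr3 was at 66.41, 62.99 and 69.31 CPM with TNFR2, 61.21, 62.47 and 59.66 with 4-1BB, 68.69, 71.26 and 65.64 with DR3 and 66.66 and 72.43 with OX40. All were below the control (97.04 to 102.6), and the 4-1BB libraries overlapped resting Tregs (61.51 to 64.11). Their log2 fold changes were −0.59 ± 0.05, −0.71 ± 0.05, −0.54 ± 0.05 and −0.52 ± 0.05, with adjusted p of at most 2.37e-11.

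In counts, 6 of 6 genes were called with TNFR2 (31.1% of all genes called), 6 with 4-1BB (25.8%), 5 with DR3 (19.6%) and 5 with OX40 (19.0%), all lower. Called and lower were 15.3%, 13.1%, 9.94% and 9.71% of all genes in the same order. Replicates lay wholly below the control in 20.8%, 21.2%, 17.7% and 23.0% of all genes, again in that order. The 4 comparisons share the 3 control libraries, so they are not independent of each other. Nr4a1, Nr4a2, Egr1, Egr2 and Egr3 were lower with all 4 agonists, as were 5.37% of all genes. The shared controls at 18 h also held 10090, 26290 and 8029 CPM of the ribosomal locus transcript, against 1407 to 12030 CPM in the agonist libraries. Without the 6 libraries over 10000 CPM, 5 genes were called with TNFR2, 6 with 4-1BB, 5 with DR3 and 3 with OX40, and Nr4a3 with TNFR2 (−0.16, adjusted p 0.0838), Nr4a1 with OX40 (−0.16, 0.0848) and Nr4a2 with OX40 (−0.21, 0.218) were no longer called. Other summed lists also lay above control with each agonist at 18 h: B cell markers (values above), markers of other lymphocytes (53.03 to 55.63 CPM in control, 66.25 to 87.87 with agonists) and dissociation stress genes (5375 to 5417 in control, 5751 to 6252 with agonists). These lists did not rise as a whole. Of 11 B cell markers tested, 1, 2, 1 and 1 were called higher with TNFR2, 4-1BB, DR3 and OX40, and 0 lower. Of 8 markers of other lymphocytes tested, 2 were called higher with each agonist, and 1 lower with TNFR2 and with 4-1BB. Of 21 stress genes tested, 9, 8, 7 and 7 were called higher and 5, 6, 5 and 6 lower. The myeloid sum was higher through Zbtb46 (10.71 CPM in control, 24.88 to 46.12 CPM with agonists), while Csf1r was at a mean of 0.1174 CPM or less in every cultured group at 18 h, and the part of these lists in the results was not tested.

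**Figure D3:**
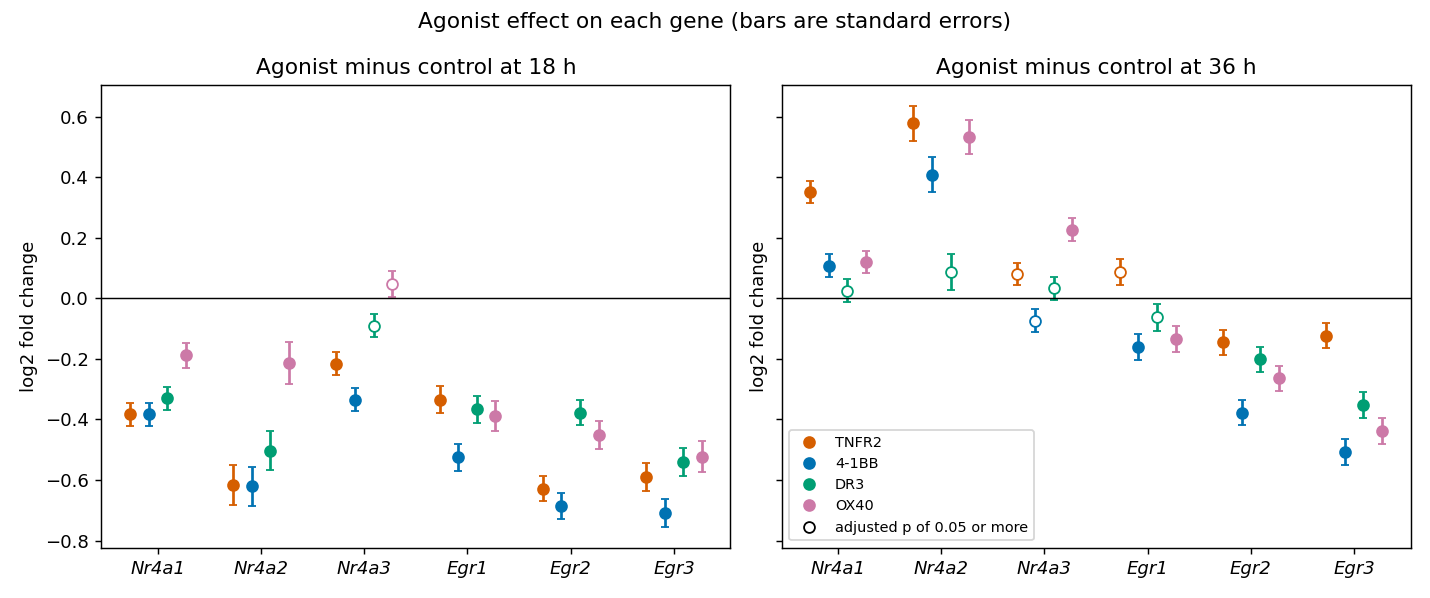
Log2 fold change of each gene (horizontal axis) with each agonist (colour) against the control of the same time, at 18 h (left) and 36 h (right), where whiskers are standard errors and open points have an adjusted p of 0.05 or more. At 18 h the points lie below 0 except Nr4a3 with OX40 (0.05), and at 36 h Nr4a1 and Nr4a2 lie above 0 while Egr2 and Egr3 stay below.

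At 36 h Nr4a1 and Nr4a2 were called higher with TNFR2, 4-1BB and OX40, and Egr2 and Egr3 were called lower with all 4 agonists. Nr4a3 was called with 1 agonist and Egr1 with 2. Nr4a1 was at 360.6, 376.6 and 358.6 CPM with the TNFR2 agonist, 295.7, 317.9 and 312.4 with 4-1BB, 293.9, 291.6 and 288.3 with DR3 and 306.1, 295.4 and 331.7 with OX40. The TNFR2 libraries lay above the control (275.6 to 298.8), and the other 3 groups overlapped it. The log2 fold change was 0.35 ± 0.04 with TNFR2 (adjusted p 1.81e-10), 0.11 ± 0.04 with 4-1BB (0.0304), 0.02 ± 0.04 with DR3 (0.749, not called) and 0.12 ± 0.04 with OX40 (0.0242). The 4-1BB call of Nr4a1 was lost without control replicate 1 (0.11, adjusted p 0.0815) or 2 (0.08, 0.184) or 4-1BB replicate 2 (0.09, 0.17) or 3 (0.10, 0.103). Its OX40 call was lost without control replicate 1 (0.12, 0.074) or 2 (0.09, 0.172) or OX40 replicate 3 (0.07, 0.327).

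Nr4a2 was called higher with TNFR2, 4-1BB and OX40 at 36 h. It was at 50.79, 48.1 and 51.19 CPM with the TNFR2 agonist, 41.99, 47.18 and 44.29 with 4-1BB, 35.52, 36.1 and 35.16 with DR3 and 47.53, 45.6 and 52.39 with OX40. All lay above the control (32.29 to 34.28), DR3 by the smallest margin. The log2 fold changes were 0.58 ± 0.06 (1.49-fold, adjusted p 2.36e-11), 0.41 ± 0.06 (1.77e-07) and 0.53 ± 0.06 (3.43e-10) for TNFR2, 4-1BB and OX40, and 0.09 ± 0.06 for DR3, which was not called (0.38).

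Nr4a3 was at 804.4, 782.3 and 845.9 CPM with the TNFR2 agonist, 696.6, 740.0 and 748.1 with 4-1BB, 768.4, 796.7 and 789.3 with DR3 and 890.0, 903.2 and 899.5 with OX40. The OX40 group lay wholly above the control (733.5 to 794.6), and the other 3 groups overlapped it. Its log2 fold change was 0.23 ± 0.04 (adjusted p 1.07e-05), and the other 3 were 0.08 ± 0.04 (0.12), −0.07 ± 0.04 (0.162) and 0.03 ± 0.04 (0.65), none called.

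Egr1 was at 137.5, 136.1 and 135.2 CPM with the TNFR2 agonist, 111.3, 120.3 and 112.8 with 4-1BB, 124.3, 123.2 and 120.9 with DR3 and 114.2, 113.5 and 123.5 with OX40. Against the control (123.9 to 131.4) the TNFR2 libraries lay above, the 4-1BB and OX40 libraries below, and the DR3 libraries overlapped. Only 4-1BB (−0.16 ± 0.04, adjusted p 0.00465) and OX40 (−0.13 ± 0.04, 0.0312) were called, while TNFR2 gave 0.09 ± 0.04 (0.15) and DR3 −0.06 ± 0.04 (0.388). The OX40 call of Egr1 was lost without control replicate 2 (−0.12, 0.104) or 3 (−0.12, 0.112) or OX40 replicate 1 (−0.11, 0.17) or 2 (−0.12, 0.115).

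Egr2 was at 75.53, 74.23 and 77.3 CPM with the TNFR2 agonist, 62.03, 65.5 and 65.66 with 4-1BB, 72.42, 74.8 and 71.16 with DR3 and 72.38, 67.15 and 68.55 with OX40, all below the control (83.08 to 84.08). In log2 fold change this was −0.15 ± 0.04 (adjusted p 0.00732), −0.38 ± 0.04 (4.18e-10), −0.20 ± 0.04 (0.000357) and −0.26 ± 0.04 (3.35e-06). Egr3 was at 118.1, 117.6 and 126.4 CPM with TNFR2, 89.84, 96.6 and 90.91 with 4-1BB, 106.2, 100.4 and 101.9 with DR3 and 96.51, 92.24 and 101.9 with OX40. The TNFR2 group overlapped the control (123.8 to 135.4) and the other 3 lay below it. Against control the log2 fold changes were −0.12 ± 0.04 (0.0262), −0.51 ± 0.04 (1.12e-13), −0.35 ± 0.04 (9.97e-09) and −0.44 ± 0.04 (2.6e-11). The TNFR2 call of Egr3 was lost without control replicate 2 (−0.10, 0.143) or 3 (−0.10, 0.113) or TNFR2 replicate 1 (−0.10, 0.125) or 2 (−0.10, 0.131).

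The number called at 36 h was 4 of 6 with TNFR2 (24.8% of all genes), 5 with 4-1BB (22.5%), 2 with DR3 (13.4%) and 6 with OX40 (13.3%). Called higher and lower were 13.0% and 11.9% of all genes with TNFR2, 10.9% and 11.5% of all genes with 4-1BB, 6.97% and 6.39% of all genes with DR3, 7.12% and 6.21% of all genes with OX40. Replicates lay wholly above and wholly below the control in 19.6% and 19.1% of all genes with TNFR2 and 17.9% and 18.5% with 4-1BB. With DR3 these shares were 15.8% and 15.4%, and with OX40 14.6% and 13.9%. Of the 21 dissociation stress genes tested, 11 were higher and 1 lower with TNFR2 at 36 h (median 0.27), 8 and 2 with 4-1BB, 7 and 3 with DR3 and 7 and 3 with OX40. Their sum was 5387 to 5575 CPM in control at 36 h and 5783 to 5944 CPM with TNFR2, 4-1BB and OX40, and with DR3 (5513 to 5661 CPM) it overlapped control. The myeloid sum was 7.928 to 9.635 CPM in control and 13.4 to 27.58 CPM with agonists at 36 h, and the part of these lists in the results was not tested. The OX40 count was 4 to 5 when any 1 library of its comparison was left out. The genes called with DR3 were Egr2 and Egr3. Without the 6 libraries over 10000 CPM of the ribosomal locus transcript the counts were 3, 4, 2 and 5 in that order. Egr2 and Egr3 were called lower in all 8 agonist comparisons, as were 2.2% of all genes, whereas Nr4a3 at 36 h was called with OX40 alone, and higher. Nr4a1 and Nr4a2 were called lower at 18 h and higher at 36 h with each of TNFR2, 4-1BB and OX40. Among all genes that reversal was found for 0.259% with TNFR2, 0.161% with 4-1BB, 0.0559% with DR3 and 0.14% with OX40.

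The change of the agonist effect with time was tested as the effect at 36 h minus the effect at 18 h, each against its own control. It was positive for all 6 genes with all 4 agonists, and 17 of 24 values were called; the 4 agonists share both control groups. Nr4a2 had the highest value with each agonist: 1.19 ± 0.09 with TNFR2 (adjusted p 3.79e-14), 1.03 ± 0.09 with 4-1BB, 0.59 ± 0.09 with DR3 and 0.75 ± 0.09 with OX40. Nr4a1 followed with 0.73 ± 0.05, 0.49 ± 0.05, 0.35 ± 0.05 and 0.31 ± 0.06, all called (highest adjusted p 0.000376). For Nr4a3 the value was called with TNFR2 (0.30 ± 0.05) and 4-1BB (0.26 ± 0.05) but not with DR3 (0.12 ± 0.05, 0.284) or OX40 (0.18 ± 0.06, 0.0671). By agonist, 6 genes were called with TNFR2 (6.69% of all genes), 5 with 4-1BB (4.37%), 3 with DR3 (2.31%) and 3 with OX40 (3.48%), all higher, as were 3.68%, 2.34%, 1.22% and 2.1% of all genes.

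Among the EGR genes the change with time was called for Egr1 with all 4 agonists (0.42 ± 0.06 with TNFR2, 0.36 ± 0.06 with 4-1BB, 0.30 ± 0.06 with DR3 and 0.25 ± 0.07 with OX40). The OX40 value of Egr1 (adjusted p 0.0202) was not called without OX40 replicate 1 at 18 h (0.19, 0.13), control replicate 1 at 36 h (0.23, 0.0631) or OX40 replicate 3 at 36 h (0.21, 0.0848). For Egr2 it was called with TNFR2 (0.48 ± 0.06) and 4-1BB (0.31 ± 0.06) and not with DR3 (0.18 ± 0.06, 0.114) or OX40 (0.19 ± 0.06, 0.0859). For Egr3 it was called with TNFR2 only (0.47 ± 0.06, 4.55e-07). With 4-1BB it was 0.20 ± 0.06 (0.0601), which became called without control replicate 2 (0.23, 0.04) or 3 (0.22, 0.0435) or 4-1BB replicate 1 (0.22, 0.042) at 36 h. Without the 6 libraries over 10000 CPM of the ribosomal locus transcript, Nr4a3 with TNFR2 (0.24, 0.111) and 4-1BB (0.24, 0.0864) and Egr1 with DR3 (0.32, 0.103) and OX40 (0.28, 0.192) were not called. Nr4a3 with OX40 was called without control replicate 2 at 36 h (0.21, 0.0446).

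The agonists also differed from each other, as far as agents given at unmatched doses can be compared. A joint test over the 4 agonists was called for 6 of 6 genes at 18 h (14.3% of all genes) and 6 of 6 at 36 h (9.06%). Of 36 gene by pair comparisons, 17 were called at 18 h and 19 at 36 h, with p-values adjusted over all genes within each pair. Without OX40 replicate 2 at 18 h, which leaves 1 OX40 library, 10 were called at 18 h. The joint count at 18 h was 4 of 6 without that library or without 4-1BB replicate 3.

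At 18 h Nr4a1 and Nr4a2 were lower with each of the other 3 agonists than with OX40. Nr4a2 was lower with TNFR2 than with OX40 (−0.40 ± 0.07, adjusted p 0.000152), lower with 4-1BB than with OX40 (−0.41 ± 0.07, 8.66e-05) and lower with DR3 than with OX40 (−0.29 ± 0.07, 0.016). Nr4a1 had the same order, with −0.20 ± 0.04, −0.20 ± 0.04 and −0.14 ± 0.04, all called. Nr4a3 was lower than with OX40 with TNFR2 (−0.26 ± 0.04) and 4-1BB (−0.38 ± 0.04), and with DR3 the difference was not called (−0.14 ± 0.04, adjusted p = 0.0534). TNFR2 and 4-1BB differed in 1 of 6 genes (Egr1, 0.19 ± 0.05; 5.56% of all genes called). For Nr4a1 the interval of that difference was −0.07 to 0.07 and for Nr4a2 −0.13 to 0.14. TNFR2 and DR3 differed in 1 gene (Egr2, −0.25 ± 0.04; 3.74% of all genes). The other pairs had 4 genes called for TNFR2 and OX40 (8.19% of all genes), 4 for 4-1BB and DR3 (8.54%), 5 for 4-1BB and OX40 (4.26%) and 2 for DR3 and OX40 (4.12%).

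At 36 h Nr4a1, Egr1 and Egr3 were higher with TNFR2 than with each of the other 3 agonists. Nr4a1 was higher with TNFR2 than with 4-1BB (0.24 ± 0.04), DR3 (0.33 ± 0.04) and OX40 (0.23 ± 0.04), all called with adjusted p of at most 3.24e-05. Egr3 was likewise higher with TNFR2, by 0.38 ± 0.04 over 4-1BB (3.71e-08), 0.23 ± 0.04 over DR3 (0.00037) and 0.32 ± 0.04 over OX40 (1.47e-06). Egr1 followed the same pattern with 0.25 ± 0.04, 0.15 ± 0.04 and 0.22 ± 0.04, all called. Nr4a3 instead was lower with TNFR2 than with OX40 (−0.15 ± 0.04, 0.0153). Nr4a2 was not shown to differ between TNFR2 and OX40 (0.04 ± 0.06, interval −0.06 to 0.15), while it was lower with DR3 than with TNFR2, 4-1BB or OX40 by 0.32 to 0.49 on the log2 scale. The counts were 5 genes for TNFR2 and 4-1BB (3.7% of all genes), 4 for TNFR2 and DR3 (3.56%), 4 for TNFR2 and OX40 (4.02%), 3 for 4-1BB and DR3 (5.43%), 1 for 4-1BB and OX40 (Nr4a3; 3.63%) and 2 for DR3 and OX40 (Nr4a2 and Nr4a3; 1.7%).

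Ordered over the 11 groups by mean CPM, the 6 genes peaked in different places. Nr4a1 ran from 386.0 ± 6.08 (SD) in control at 18 h through TNFR2 at 36 h and OX40 at 18 h, each apart from the next, to 7 groups between 286.4 and 311.1 CPM in which most neighbours overlapped, and to resting. Nr4a2 was highest with TNFR2 (50.02 ± 1.68), OX40 (48.51 ± 3.5) and 4-1BB (44.49 ± 2.6) at 36 h, where each overlapped the next, and lowest, after resting, with 4-1BB (22.81 ± 1.52) and TNFR2 (22.95 ± 0.665) at 18 h. All 5 groups of Nr4a3 at 36 h lay above all 5 at 18 h, from 897.5 ± 6.82 with OX40 at 36 h to 471.2 ± 17.1 with 4-1BB at 18 h. Egr1 ran from 184.6 ± 12.5 in resting to 99.23 ± 4.73 with 4-1BB at 18 h, and neighbours overlapped from control at 36 h downward. Egr2 was highest in control at 18 h (102.5 ± 1.93) and 36 h (83.7 ± 0.542), followed by DR3 at 18 h (78.87 ± 1.19), while from TNFR2 at 36 h down to resting each group overlapped the next. Egr3 was highest in control at 36 h (131.5 ± 6.61) and TNFR2 at 36 h (120.7 ± 4.96), which overlapped, and its 5 lowest groups (4-1BB, TNFR2, DR3 and OX40 at 18 h and resting) overlapped in a chain. Mean TPM put at least 49 of the 55 pairs of groups in the order of mean CPM for each gene, the least for Nr4a2. In the OX40 libraries at 18 h the TPM of Nr4a2 was 28.72 and 17.84 where its CPM was 30.55 and 29.99, with an estimated mean isoform length of 1903 bases in the first.

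The closest relatives of the EGR genes in the list were also examined. Egr4, a neural member of the family, was scarce, at a mean of 0.9124 CPM in resting and 2.366 in control at 18 h, and was called against control with TNFR2 only (0.57 ± 0.20 at 18 h, adjusted p 0.0249, and 0.78 ± 0.19 at 36 h, 0.00184), in both cases higher. Nab1 and Nab2 encode corepressors that bind EGR proteins, and Nab2 is itself a known EGR target. Nab1 was higher in all 8 agonist comparisons by 0.19 to 0.31 on the log2 scale, with control means of 65.44 CPM at 18 h and 66.83 at 36 h. Nab2 rose from a mean of 73.38 CPM in resting to 88.57 at 18 h and 112.0 at 36 h, and with agonists was lower with 4-1BB at 18 h (−0.18 ± 0.05, 0.00216) and higher with TNFR2 (0.26 ± 0.04), DR3 (0.16 ± 0.04) and OX40 (0.13 ± 0.04) at 36 h. The cofactor list (10 genes tested, Nab1, Nab2 and Rxra, the retinoid receptor that pairs with Nur77 and Nurr1, among them) had 3 higher and 3 lower with TNFR2 at 18 h (median log2 fold change 0.02, all genes −0.01).

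Among regulators known to act on early genes, Crem was lower with every agonist at 18 h and higher with 3 of 4 at 36 h. Of 16 transcription factors and partners tested (SRF and its cofactors, CREB, MEF2, class IIa HDACs and NFAT), 4 were higher and 10 lower in control at 18 h than in resting (median −0.33, all genes −0.01). With agonists at 18 h, 1, 1, 1 and 2 were higher and 5, 6, 5 and 4 lower with TNFR2, 4-1BB, DR3 and OX40. At 36 h 4, 3, 2 and 2 were higher and 3, 4, 1 and 2 lower in the same order. Crem, which encodes CREM and the repressor ICER that bind CRE sites, rose from 13.01 to 69.15 CPM in control at 18 h (2.41 ± 0.07) and to 83.19 CPM in control at 36 h (0.27 ± 0.05 between the times, where Nr4a2 was not called). It was lower with every agonist at 18 h (−0.42, −0.43, −0.31 and −0.23 with TNFR2, 4-1BB, DR3 and OX40). At 36 h Crem was higher with TNFR2 (0.15), 4-1BB (0.21) and OX40 (0.20), which are also the agonists with which Nr4a2 was called higher. By the naming rule the genes of this list at 36 h were instead Srf (0.18) and Elk3 (−0.17) with TNFR2, and Elk3 (−0.36) and Nfatc1 (−0.24) with 4-1BB. Hdac7, a class IIa HDAC known to hold Nr4a1 silent in thymocytes, was lower at 18 h with TNFR2 (−0.39 ± 0.04), 4-1BB (−0.44 ± 0.04), DR3 (−0.22 ± 0.04) and OX40 (−0.22 ± 0.04).

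The wider set of 31 other immediate early genes was mixed. In control at 18 h 11 were higher and 20 lower than in resting (median −0.41, all genes −0.01): Fos (−6.90 ± 0.07) and Fosb (−5.29 ± 0.08) fell from a mean of 573.9 to 4.796 CPM and from 178.2 to 4.541 CPM, while Atf3 (6.99 ± 0.17) and Fosl1 (6.83 ± 0.23) rose. Fos, Fosb and Atf3 are also members of a list of dissociation stress genes. Of its 21 genes tested, 5 were higher and 16 lower in control at 18 h than in resting (median −0.88, all genes −0.01). The list's sum was 5560 to 5672 CPM in resting and 5375 to 5417 CPM in control at 18 h. Hspa8 had the highest mean in the list, with 939.7 CPM in resting and 2153 CPM in cultured libraries. With agonists at 18 h the set had 9 higher and 10 lower with TNFR2, 8 and 12 with 4-1BB, 8 and 8 with DR3, and 7 and 10 with OX40. Jun, the AP-1 subunit, was higher with all 4 agonists at 18 h, by 1.06 ± 0.05, 1.03 ± 0.05, 0.79 ± 0.05 and 0.73 ± 0.05. At 36 h 18 were higher and 4 lower with TNFR2 (median 0.17), 11 and 8 with 4-1BB (0.11), 12 and 3 with DR3 (0.13) and 10 and 5 with OX40 (0.14), where all genes had medians within 0.01 of 0.

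Of genes that damp ERK signalling and are themselves induced by it, most were called lower with TNFR2 and 4-1BB at 18 h and with 4-1BB at 36 h. Of 10 tested (dual-specificity phosphatases, Sprouty and Spred proteins and Errfi1), 8 were higher and 1 lower in control at 18 h than in resting (median 1.16, all genes −0.01), led by Dusp4 (3.02 ± 0.04) and Dusp5 (2.48 ± 0.05), while Dusp6, the cytosolic ERK phosphatase, fell (−2.18 ± 0.07, 61.98 to 13.64 CPM). With agonists at 18 h 8, 8, 3 and 3 were called lower with TNFR2 (median −0.35), 4-1BB (−0.37), DR3 (−0.205) and OX40 (−0.14). Dusp6 was lower in all 8 agonist comparisons, by 0.92 ± 0.09 with TNFR2 and 0.78 ± 0.08 with 4-1BB at 18 h and 0.65 ± 0.08 and 0.74 ± 0.08 at 36 h. Spry1, an inhibitor of the Ras and ERK pathway, was lower too (−0.56 with TNFR2, −0.48 with 4-1BB, −0.47 with DR3 and −0.24 with OX40 at 18 h). At 36 h the counts were 2 higher and 3 lower, 1 and 7, 1 and 4, and 1 and 2. Of the 10 calcineurin and NFAT feedback genes tested, 1 was higher and 3 lower with TNFR2 at 18 h, 3 and 3 with 4-1BB, 0 and 1 with DR3, and 0 and 2 with OX40, against 9.71% to 15.3% of all genes lower. Among them Rcan3, an inhibitor of calcineurin, was lower in all 8 comparisons (−0.62, −0.63, −0.45 and −0.55 at 18 h).

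**Figure D4:**
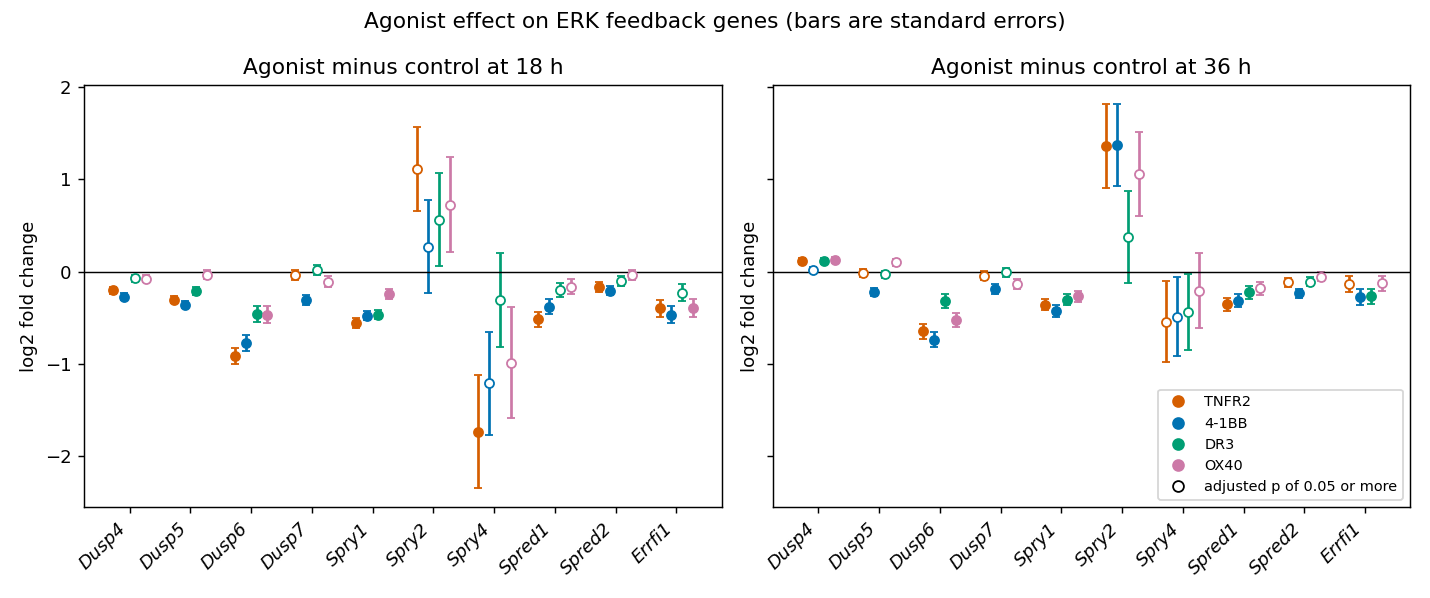
Log2 fold change of 10 genes that damp ERK signalling (horizontal axis) with each agonist (colour, as in the key) against control at 18 h (left) and 36 h (right), where whiskers are standard errors and open points have an adjusted p of 0.05 or more. Dusp6 is below 0 with every agonist at both times and at 18 h the filled points lie below 0.

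Genes reported as targets of EGR2 and EGR3 in T cells (23 tested) had 8 higher and 12 lower in control at 18 h than in resting (median −0.32, all genes −0.01). With agonists at 18 h 2 were higher and 14 lower with TNFR2 (median −0.25), 2 and 15 with 4-1BB (−0.27), 3 and 10 with DR3 (−0.10) and 4 and 10 with OX40 (−0.14), and at 36 h 6 and 7, 4 and 8, 3 and 7, and 4 and 5. Il10, a suppressive cytokine, fell in all 8 comparisons, from a mean of 31.9 CPM in control to 12.22 with TNFR2 (−1.40 ± 0.10) and 11.21 with 4-1BB (−1.50 ± 0.10) at 18 h. Bhlhe40, a transcriptional repressor, moved the other way in all 8, from 99.04 to 166.8 CPM with TNFR2 (0.75 ± 0.04) and 217.9 with 4-1BB (1.14 ± 0.03) at 18 h. Tnfrsf9, which encodes 4-1BB, is also in this list, and is 1 of the genes most like Nr4a1 given later. It was lower at 18 h with 4-1BB (−0.44 ± 0.04) and TNFR2 (−0.17 ± 0.04) and higher at 36 h with TNFR2 (0.40 ± 0.04) and 4-1BB (0.18 ± 0.04).

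Genes tied to NR4A function in Tregs or exhausted T cells (24 tested) had 13 higher and 9 lower in control at 18 h than in resting (median 0.16), and 2 higher and 17 lower at 36 h than at 18 h (median −0.44, all genes −0.02), a period in which Nr4a1 fell and Nr4a3 rose. Foxp3 itself went from 581.7 to 368.7 CPM between the times (−0.66 ± 0.04). With agonists at 18 h 5 were higher and 13 lower with TNFR2 (median −0.28), 6 and 13 with 4-1BB (−0.35), 5 and 12 with DR3 (−0.21) and 6 and 11 with OX40 (−0.14). Nt5e, the ectoenzyme CD73, fell from 210.0 to 110.5 CPM with TNFR2 (−0.93 ± 0.04) and to 131.4 CPM with OX40 (−0.68 ± 0.04), and Bcl2l11, the death factor BIM, from 24.15 to 11.87 CPM with TNFR2 (−1.01 ± 0.08). Tigit, an inhibitory receptor, fell with 4-1BB (−1.31 ± 0.05). At 36 h the counts were 7 and 10, 5 and 12, 5 and 8, and 6 and 7, with Cd83 higher (0.98 ± 0.04 with TNFR2) and Nt5e lower (−0.87 ± 0.04 with TNFR2).

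The pattern of each gene over the 32 libraries was compared with that of 9185 other genes by Pearson correlation of log2 CPM, as a description: libraries of a group share their treatment, and resting and cultured libraries sit far apart, so r within the 29 cultured libraries is given as well. Nr4a1 was most like Fosl2 (r 0.973, 0.809 in cultured), Tnfrsf9 (0.968, 0.751) and Map2k3 (0.956, 0.618). Nr4a2 was most like Tg (0.953, 0.898), Gzmb (0.951, 0.903) and Crem (0.948, 0.936). Genes most like Nr4a3 included Odc1 (0.994, 0.932) and Serpine2 (0.993, 0.958). Egr1 was most like Hsh2d (0.927, 0.821), Tmc8 (0.922, 0.801) and Tmem229b (0.916, 0.787). Egr2 was most like Cxcr6 (0.896, 0.916), Sh2d2a (0.876, 0.897) and Twsg1 (0.875, 0.879). Egr3 was most like Extl3 (0.938, 0.934), Ppp1r3b (0.921, 0.928) and Smox (0.917, 0.944).

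Among the 6 genes themselves the correlations depended on whether resting Tregs were included. Nr4a1 and Nr4a3 had r 0.894 over all 32 libraries but 0.058 in the 29 cultured ones, and Nr4a1 and Egr1 had −0.576 and 0.596. Within the cultured libraries Nr4a3 went with Nr4a2 (0.891) and Egr3 (0.815), Egr1 with Egr3 (0.805) and Egr2 (0.727), and Nr4a3 with Egr2 hardly at all (0.076). The 2 families thus did not form separate blocks by this measure: within cultured libraries Nr4a3 was closer to Egr3 than to Nr4a1.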

How the data were processed

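The authors deposited RSEM expected counts and TPM per gene for each library. The submitters' processing notes name RSEM 1.2.28, STAR 2.5.3a, Trimmomatic and FastQC, and the build mm10; their settings and the annotation are not stated there. SMART-Seq v4, the kit in the labels' protocols, does not mark strand and carries no molecular identifiers. Deposited TPM was used unchanged for family shares. Expected counts were rounded to whole numbers, filtered with filterByExpr, scaled by TMM and tested with edgeR 4.0.16 (R 4.3.3) by its quasi-likelihood test: 1 mean for each of 11 groups, Benjamini-Hochberg adjustment over 14313 genes per contrast, threshold 0.05. The test was checked on simulated data. The 6 genes and the 7 pathway and 6 marker lists were chosen with earlier results of these data known. Named list genes were the 4 called genes with the largest fold change per list between control groups or against resting, and 2 per list with an agonist, with at least 5 CPM and no overlap; likeness genes were the top 3 by r, of which 1 is not reported here. The alternatives were DESeq2 1.42.0, RLE and upper quartile scaling, no filter or a filter of 10 CPM, only the groups compared, a replicate block, leaving out libraries, and the ribosomal locus transcript as a covariate (added after seeing the data).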

Additional observations from a re-analysis of the deposited data

Results flagged for a closer look

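The effect of an agonist differed between 18 and 36 h by an interaction test (edgeR's quasi-likelihood test, adjusted p below 0.05) in 17 of 24 gene by agonist combinations, all toward a higher effect at 36 h. With TNFR2 the difference was 0.73 for Nr4a1, 1.19 for Nr4a2, 0.30 for Nr4a3, 0.42 for Egr1, 0.48 for Egr2 and 0.47 for Egr3 on the log2 scale. With 4-1BB it was 0.49 for Nr4a1, 1.03 for Nr4a2, 0.26 for Nr4a3, 0.36 for Egr1 and 0.31 for Egr2. With DR3 it was 0.35 for Nr4a1, 0.59 for Nr4a2 and 0.30 for Egr1, and with OX40 0.31 for Nr4a1, 0.75 for Nr4a2 and 0.25 for Egr1. Called and higher in this test were 3.68% of all genes with TNFR2, 2.34% with 4-1BB, 1.22% with DR3 and 2.1% with OX40. The control groups enter every one of these values, and Nr4a1 differed between them by 0.43 on the log2 scale, higher at 18 h, while for Nr4a2 that difference was not called (adjusted p 0.354).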

How the results depend on the processing

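Of 810 values (90 gene by comparison values under 9 other settings), 786 kept their direction and side of the threshold, 17 lost and 7 gained a call, and 0 reversed; in 672 values with 1 library left out these were 647, 21, 4 and 0. DESeq2, RLE scaling and the replicate block changed none of the 90 calls. Same-numbered libraries showed little shared deviation from their group means (correlations −0.167 to 0.137). This cannot settle whether they were paired, and the labels do not say. With the block, 6, 6, 5 and 5 genes were called with TNFR2, 4-1BB, DR3 and OX40 at 18 h and 4, 5, 2 and 6 at 36 h, as without it. Of the 36 pairs at 36 h, 18 instead of 19 were called with the block. Without the 6 libraries over 10000 CPM of the ribosomal locus transcript, which leaves 1 control at 18 h, 11 of 90 calls were lost, and OX40 at 18 h had 3 in place of 5 genes called, the pairs 13 of 36 at both times and the joint test at 18 h 4 of 6; the fewer control libraries are part of that construction, and any further cause was not tested. With only the groups compared in the fit, 13 pairs at 18 h, 22 at 36 h and 4 of 6 genes in the joint test at 18 h were called. Leaving out 1 library gave 6 genes called for control against resting at either time, 5 between the times, 6 with TNFR2, 6 with 4-1BB, 5 with DR3 and 4 to 5 with OX40 at 18 h, 3 to 4 with TNFR2, 4 to 5 with 4-1BB, 2 with DR3 and 4 to 5 with OX40 at 36 h, 16 to 19 interactions, 10 to 18 pairs at 18 h (10 without OX40 replicate 2), 16 to 19 pairs at 36 h, and 4 to 6 genes in the joint test at 18 h and 6 at 36 h. Values of 0.07 to 0.32 on the log2 scale, in size, crossed the threshold in some setting. Agonist doses are unmatched, and no culture lacked antibodies to CD3 and CD28.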
